A study of Mus musculus with 4 samples.

Results

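Glyceraldehyde-3-phosphate dehydrogenase (GAPDH), triosephosphate isomerase (TPI1), liver-type phosphofructokinase (PFKL) and brain-type creatine kinase (CKB) were followed on nylon membrane arrays of sensory neurons whose axons and cell bodies were collected apart. The members are the spots whose platform annotation gives a single gene symbol and whose symbol is 1 of these 4, which took in 21 cDNA clones, 4 for GAPDH, 5 for TPI1, 6 for PFKL and 6 for CKB. They are 21 of 8496 clones with a single symbol, which cover 6284 genes, among 9600 spots in all. Another 21 clones carry several symbols, of which 0 name a member, and 1083 spots are unnamed here. The symbols are human although the RNA is from mouse, and a clone is called below by the number of its spot on the membrane.

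Dorsal root ganglion (DRG) neurons of NIH Swiss mice at embryonic day 13.5 were grown for 3 weeks in Campenot chambers, culture dishes in which axons grow beneath a divider and reach a separate compartment. The 4 groups were axons and cell bodies of cultures stimulated electrically for 2 h, and axons and cell bodies of cultures left without stimulation. All 4 had been treated to stop the division of non-neuronal cells and had spent the night before in medium free of serum and nerve growth factor. Each group is 1 pool of 3 coverslips on 1 array, so there was no replicate within a group, no test was run and every difference below compares single arrays. A compartment is defined by its place in the chamber, so that non-neuronal cells that remained in the cell body compartment, or entered the axon compartment, contribute to its RNA.

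Glycolysis splits a molecule of glucose into pyruvate and yields ATP without oxygen, in the cytosol and close to where the ATP is spent. Phosphofructokinase makes its committed step, triosephosphate isomerase interconverts the 3-carbon sugars that follow, and glyceraldehyde-3-phosphate dehydrogenase carries out the oxidation on which the later ATP-yielding steps depend. Creatine kinase B passes the phosphate of ATP to creatine and back, a rapid buffer of ATP in brain and nerve. Axons lie far from the cell body and carry glycolytic enzymes along with fast transported vesicles, and GAPDH mRNA is widely used as a reference to which other transcripts are scaled.

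Without stimulation all 4 GAPDH clones were lower in axons than in cell bodies relative to the rest of the array, with a mean z ratio of −1.01 ± 0.18 (SD between clones, n = 4). The z ratio takes the z-score of a spot's log10 intensity on each of 2 arrays, subtracts them and scales the result by its SD across the 9600 spots, and a clone was counted as higher or lower at 1.4 or more in size. Of the 16 means of a member gene in a comparison, this was the 1 larger than the SD between clones. Over the 142 genes with at least 4 clones such means made up 14.8% for stimulation in axons, 25.4% in cell bodies, 17.6% between the unstimulated and 15.5% between the stimulated compartments. PFKL, TPI1 and CKB had means between −0.23 and 0.55 in the stimulation and unstimulated compartment comparisons, all within the spread of their clones.

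The arrays differed in brightness. For axons the median intensity was 102.5 (stimulated) and 89.3 (unstimulated), and for cell bodies 118.1 (stimulated) and 159.7 (unstimulated), in arbitrary units. A background limit was set at the 95th percentile of 384 spots taken to be blank. It came to 42.5, 21.9, 10 and 10 in the same order. Which spots are blank was inferred here from missing names and low values. Every statement about background therefore rests on that choice. The value 10 recurs on all 4 arrays, each of which also has lower readings. Of the 21 member clones, 18 lay above the limit on all 4 arrays, 9 lay above the array mean on all 4 and 11 below it on all 4. The markers of sensory neurons were checked on the same arrays. The 6 of 17 listed genes that the platform measured each had a clone above background on every array. Their summed intensities were 2957 and 3036 in the axon arrays and 4086 and 4144 in the cell body arrays. Of all clones with a single symbol, 88.4% (stimulated axons) to 97.6% (unstimulated cell bodies) were above background too, so this check does not single out neurons. On each array 2 of the 6 lay above the array mean, and SNAP25, at 42.8 in stimulated axons, was just over the limit. CALCA, TRPV1 and SCN10A, which mark sensory neurons, are not among the 6, so the label rests on general neuronal genes such as UCHL1, STMN2 and TUBB3.

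**Figure D1:**
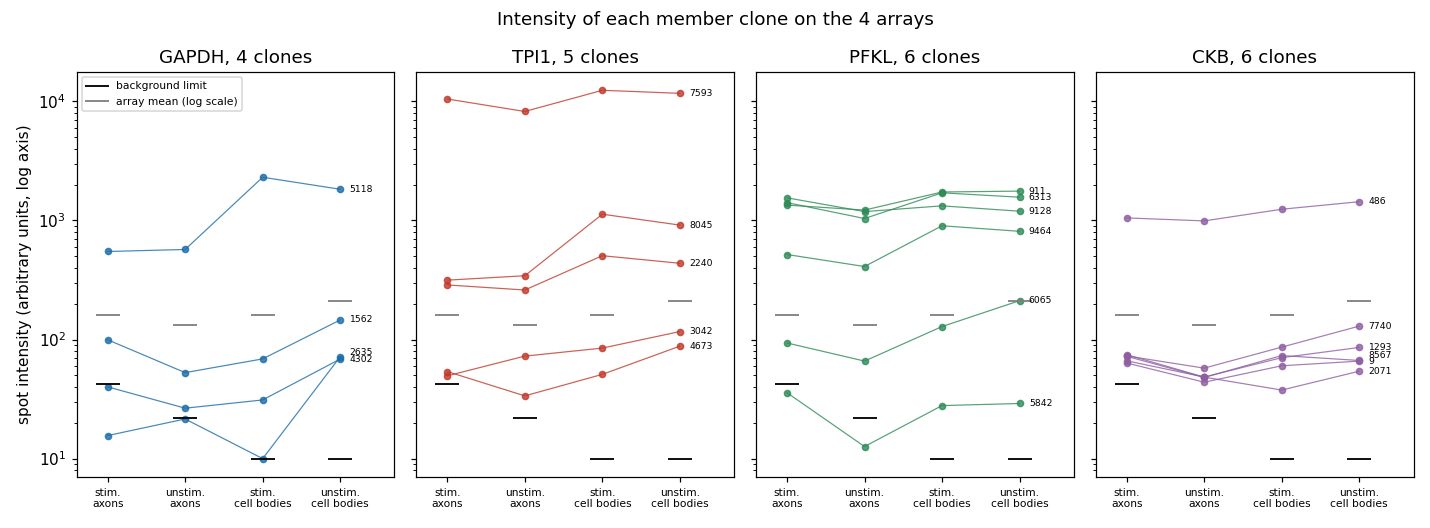
Spot intensity (arbitrary units, log axis) of each of the 21 member clones on the 4 arrays, 1 panel per gene, with each clone joined by a line and named by its spot number. Black dashes mark the background limit and grey dashes the array mean on the log scale. The clones of a gene are widely spread on every array, and the brightest of GAPDH, TPI1 and CKB are the same on all 4.

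GAPDH is represented by 1 bright clone and 3 dim ones. The bright clone, at spot 5118, read 549 in stimulated and 571 in unstimulated axons, 2308 in stimulated cell bodies and 1829.8 in unstimulated cell bodies. Both axon readings lay well below both cell body readings. Clone 1562 read 99.6 and 52.8 in stimulated and unstimulated axons, and 68.8 and 146 in stimulated and unstimulated cell bodies. Clone 4302 read 40.1, 26.5, 31.1 and 68.6 in the same order, the first of these under the background limit. Clone 2635 read 15.6, 21.5, 10 and 71.7, and only the last of them rose above the limit of its array. The 3 dim clones were each highest in unstimulated cell bodies, whereas clone 5118 was highest in stimulated cell bodies.

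In the comparison of unstimulated axons with unstimulated cell bodies, the GAPDH z ratios were −0.93 for clone 1562, −1.28 for clone 2635, −0.88 for clone 4302 and −0.94 for clone 5118. The intensity was 2.77, 2.59 and 3.21 times as high in cell bodies for clones 1562, 4302 and 5118, against a ratio of 1.79 between the array medians. Scaled to the medians, cell bodies were 1.55, 1.45 and 1.79 times as high. For clone 2635 the axon reading lay just under its limit, so no fold is given. Over all clones with a single symbol the median z ratio of this comparison was −0.07, and 54.5% were below 0. The share of them at or below −0.88, the highest of the GAPDH clones, was 11.9%, and it was 3.84% among the 2965 clones above the mean on all arrays and 14.7% among the 4387 below it on all arrays. Of 142 genes with at least 4 clones, 3 had a lower mean than GAPDH.

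No GAPDH clone passed the threshold of 1.4 in that comparison. Over the 21 member clones 0 were higher and 0 lower there, against 5.2% higher and 3.62% lower over all spots. The value for GAPDH was below 0 under all 9 alternatives that give a z ratio, from −1.73 to −0.78, and the median-centred log2 ratio was −0.73. Not all of the 9 could differ in sign. The other deposited table is identical, and the median over 4 clones below 0 has to be below 0. The filters on spots above the array mean and above 10 only rescale the clones' differences, so they could not change the sign either. The −1.73 comes from 1 clone, 5118, with the filter on spots above the array mean. In pooled RNA of a compartment, less RNA per cell or axon and fewer cells or axons of a kind cannot be told apart. As raw intensities the 5 measured glial markers summed to 982 in unstimulated axons and 1603 in unstimulated cell bodies, and the 3 fibroblast markers to 102 and 252. The 4 macrophage markers summed to 1432 and 1813, and the 0 of 4 endothelial markers measured give no value. The ratio of 1.79 between the array medians exceeds that of the glial and of the macrophage sums. As z ratios, which allow for it, the median was −0.49 over the glial markers with 3 of 5 below 0, −0.63 over the fibroblast markers with 3 of 3 below 0, and 0.42 over the macrophage markers with 1 of 4 below 0. It was −0.41 over the sensory neuron markers, with 4 of 6 below 0. Of the 3 fibroblast markers, 1 was above background in unstimulated axons and 2 in unstimulated cell bodies. The macrophage marker CD14 read 10 in unstimulated cell bodies, not above the limit. The part of any of these cells in the GAPDH values was not tested.

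Between the stimulated compartments the GAPDH clones did not agree. In stimulated axons against stimulated cell bodies the 4 z ratios were 0.36, −0.08, −0.06 and −1.58 for clones 1562, 2635, 4302 and 5118, a mean of −0.34 ± 0.85. The bright clone alone passed the threshold, its cell body reading being 4.20 times its axon reading, or 3.65 times after scaling to the medians. The 3 dim clones lay close to 0 or above it. The stimulated arrays share no sample with the unstimulated ones, but the stimulation comparisons below use the same arrays.

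Stimulation itself moved the GAPDH clones in different directions. In axons the z ratios were 0.96 for clone 1562, −1.44 for clone 2635, 0.35 for clone 4302 and −0.38 for clone 5118, with a mean of −0.13 ± 1.03. Clone 2635 passed the threshold between a pair of readings that both lay under the background limit. In cell bodies the z ratios were −0.90, −3.20, −0.83 and 0.58 in the same order of clones, a mean of −1.09 ± 1.57. The value of −3.20 rests on the reading of 10 in stimulated cell bodies, which is not above the limit there and against which the unstimulated reading was at least 5.30 times as high after scaling to the medians. Without clone 2635 the mean was −0.38. The response of axons minus that of cell bodies, on the same scale, was 0.69 ± 0.95 over the 4 clones, within their spread.

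**Figure D2:**
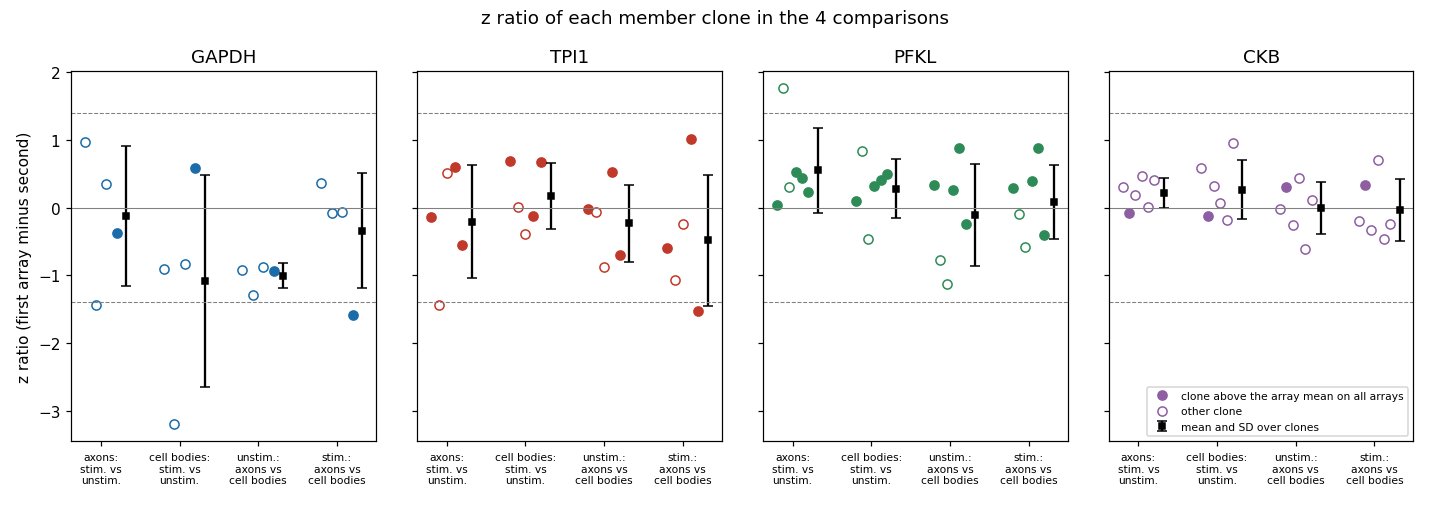
z ratio of each member clone in the 4 comparisons, 1 panel per gene. Filled points are clones above the array mean on all 4 arrays, open points the other clones, black squares with bars the mean and SD over the clones of the gene, and dashed lines the threshold of 1.4 in each direction. The 4 GAPDH clones lie together only in the unstimulated comparison of axons with cell bodies, between −1.28 and −0.88.

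PFKL, the enzyme of the committed step, had all 6 clones above 0 after stimulation in axons, although clone 911, at 0.03, lay between −0.13 and −0.06 with the log2 ratio, quantile, loess and normexp processing. Clone 911 read 1347 and 1223 in stimulated and unstimulated axons and 1735 and 1765 in stimulated and unstimulated cell bodies. Clone 6313 read 1413, 1039, 1708 and 1569 in the same order, and clone 9128 read 1550.4, 1188, 1327 and 1196.5. Clone 9464 was less bright, with 518, 411, 903 and 811. In each of these 4 bright clones the stimulated axon reading was 1.10 to 1.36 times the unstimulated one, while the array medians stood at 1.15. The dim clones 6065 (93.6, 65.9, 129, 212) and 5842 (35.8, 12.6, 27.9, 29.0) followed, and clone 5842 was not above background on either axon array.

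The PFKL z ratios in axons ran from 0.03 for clone 911 to 1.77 for clone 5842, and the mean was 0.55 ± 0.62 (SD between clones, n = 6). Clone 5842 was the 1 of the 21 member clones counted as higher, against 4.47% of all spots, and both of its readings lie under the limit. Without it the mean was 0.30, and the other 5 clones stayed between 0.03 and 0.52. The share of single-symbol clones above 0 was 51.6% in this comparison and 63.5% among those above the array mean on all arrays, with a median of 0.15 for the latter. In cell bodies PFKL had a mean of 0.28 ± 0.44, with 5 of 6 clones above 0 and clone 6065 at −0.47. Axons and cell bodies differed by −0.11 ± 0.75 without stimulation and by 0.08 ± 0.55 with it, with clones on both sides of 0 each time. The dim clones 5842 and 6065 were on the low side without stimulation, at −0.77 and −1.13, and clone 9128 was on the high side, at 0.88.

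The clones of TPI1 are the most widely spread of the 4 genes. Clone 7593 read 10478 and 8233 in stimulated and unstimulated axons and 12403 and 11692 in stimulated and unstimulated cell bodies. Clone 8045 read 315, 343, 1129.5 and 915 in the same order, and clone 2240 read 288, 261, 506 and 437. With stimulation the cell body reading of clone 8045 was 3.58 times its axon reading, the highest ratio of the TPI1 clones, followed by clone 2240 at 1.76. Without stimulation clones 8045 and 4673 were close, at 2.66 and 2.62 times. Clone 3042 read 49.6, 72.6, 84.8 and 117, and clone 4673 read 53.8, 33.6, 51.0 and 88.0. These dim clones did not share the order of the arrays, since 3042 was lowest in stimulated axons and 4673 in unstimulated axons.

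The TPI1 z ratios after stimulation in axons were −0.14, −1.44, 0.51, 0.60 and −0.55 for clones 2240, 3042, 4673, 7593 and 8045, a mean of −0.21 ± 0.84. Clone 3042 was 1 of 2 member clones counted as lower, the other being the GAPDH clone under the limit, against 5.69% of all spots. Its unstimulated axon reading was 1.46 times the stimulated one, and both were above background. In cell bodies the TPI1 values were 0.69, 0.01, −0.39, −0.12 and 0.67, a mean of 0.17 ± 0.49. The clones of this gene therefore gave no single direction in either compartment.

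Between stimulated axons and stimulated cell bodies TPI1 ranged from −1.53 for clone 8045 to 1.004 for clone 7593, with a mean of −0.49 ± 0.96. Clone 8045 was counted as lower in axons, its cell body reading being 3.58 times its axon reading, or 3.11 times after scaling to the medians. With GAPDH clone 5118 this made 2 of 21 member clones lower and 0 higher in stimulated axons, against 5.69% lower and 4.77% higher over all spots. Both are above the array mean on all 4 arrays, and both were also on the low side without stimulation, at −0.70 and −0.94. Clone 7593, the brightest TPI1 spot, lay on the other side of 0 in both comparisons, at 1.004 and 0.52.

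CKB had 1 bright clone and 5 dim ones. Its clone at spot 486 read 1051 and 992 in stimulated and unstimulated axons and 1243 and 1438 in stimulated and unstimulated cell bodies. The other 5 clones were close to each other, between 63.6 and 74.7 in stimulated axons, 43.8 and 57.5 in the unstimulated ones, 37.7 and 86.4 in stimulated cell bodies, and 54.2 and 129.7 in unstimulated cell bodies. All 6 clones were above background on every array. No CKB clone passed the threshold in any of the 4 comparisons, and the largest value in size was 0.95, for clone 8567 in cell bodies.

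The means for CKB were 0.21 ± 0.22 for stimulation in axons, 0.26 ± 0.44 for stimulation in cell bodies, −0.00 ± 0.38 for unstimulated axons against cell bodies and −0.03 ± 0.45 for the stimulated ones (SD between clones, n = 6). In axons 5 of 6 clones were above 0, and the exception was the bright clone 486 at −0.09. Only clone 2071 was above 0.4 in both comparisons of compartments, at 0.44 and 0.71, with intensities of 74.7 and 48.4 in stimulated and unstimulated axons and 37.7 and 54.2 in cell bodies.

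Read as a whole, the 21 clones had 15 above 0 and 6 below after stimulation in axons, and 13 and 8 in cell bodies, where 51.6% and 55.4% of all single-symbol clones were above 0. In cell bodies 0 were counted as higher and 1, the GAPDH clone 2635, as lower, against 2.27% and 4.01% of all spots. Both comparisons of axons with cell bodies had 7 clones above 0 and 14 below, and they share no array. Among all single-symbol clones 54.5% were below 0 without stimulation and 52.8% with it. Of the 11 member clones below the mean on all arrays, 9 were below 0 in each of the 2 comparisons, against 63.0% and 54.8% of the 4387 clones of that kind. Of the 9 bright member clones, 5 were above 0 and 4 below in each. Of the 6 calls in all, 3 had both readings above background, and over all spots the share of calls that did was between 42.8% and 50.7%.

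The clones of a gene differed from each other far more than a clone differed between arrays. Of the variation of the z-scores of a gene over its clones and the 4 arrays, 93.1% lay between clones for GAPDH, 97.9% for TPI1, 97.6% for PFKL and 98.1% for CKB, and the median was 95.03% over the 142 genes with at least 4 clones. The share between arrays was 3.38% for GAPDH, and 0.435%, 0.397% and 0.245% for TPI1, PFKL and CKB, where the median gene had 0.975%. These shares include the readings not above background of GAPDH clones 2635 and 4302 and PFKL clone 5842. On arrays where every clone of the gene was above background, the highest clone was 133 to 245 times the lowest for TPI1 and 16.5 to 33.0 times for CKB on all 4 arrays, 60.8 and 62.2 times for PFKL in cell bodies, and 26.7 times for GAPDH in unstimulated cell bodies. The SD across the arrays within a clone was 0.27 z-score units for GAPDH, 0.18 for TPI1, 0.16 for PFKL and 0.10 for CKB, with a median of 0.16.

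**Figure D3:**
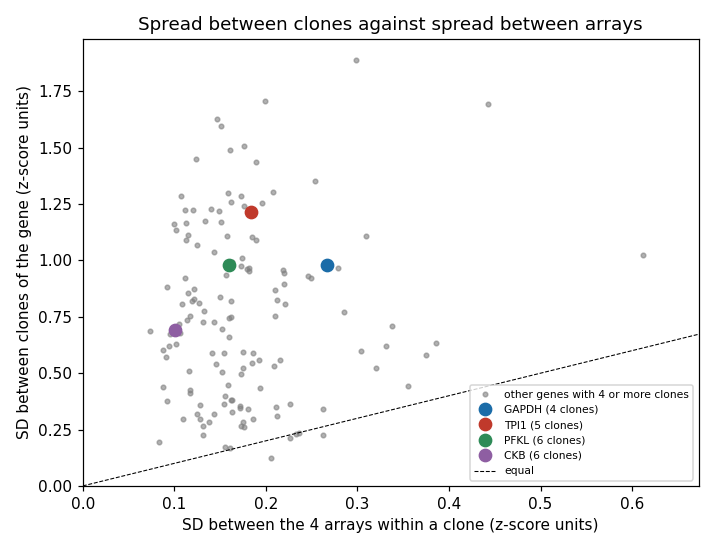
SD between the clones of a gene (vertical) against the SD between the 4 arrays within a clone (horizontal), both in z-score units, for the 142 genes with at least 4 clones. Coloured points are the 4 member genes and the dashed line marks equal spread. All 4 lie far above the line, and GAPDH lies farthest to the right among them, at 0.27.

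The brightest spot was the same on all 4 arrays for GAPDH, TPI1 and CKB, and for PFKL it was clone 9128 in stimulated axons and clone 911 on the other 3. The dimmest spot was the same on all 4 arrays for PFKL, and differed between arrays for GAPDH, TPI1 and CKB. Across the 21 clones the correlation of log10 intensity between arrays ran from 0.956 to 0.984 (Pearson) and from 0.875 to 0.964 (Spearman), over clones that share the RNA and the membrane. For 3640 pairs of clones of the same gene over the whole platform the SD within a gene was between 0.855 and 0.944 z-score units on an array, and between 0.715 and 0.887 for the z ratio in the 4 comparisons. The GAPDH spread of 0.18 between unstimulated compartments compares with 0.772 for such pairs in that comparison.

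The mean z-score of a gene on each array places it relative to the whole array. GAPDH stood at −0.47 and −0.43 in stimulated and unstimulated axons, −0.34 in stimulated cell bodies and −0.06 in unstimulated cell bodies. TPI1 was at 0.40, 0.45, 0.58 and 0.54 in the same order, PFKL at 0.60, 0.45, 0.57 and 0.49, and CKB at −0.24, −0.30, −0.23 and −0.30. For each gene the SD between clones on an array was between 0.65 and 1.37, so the rank of the genes on an array rests on widely spread clones. That SD does not measure a difference between arrays, because the same clones lie on every array. The z ratio, taken clone by clone, does so for single arrays. By it GAPDH between the unstimulated compartments, at −1.01 ± 0.18 (SD between clones), was the only member mean larger than its SD.

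The genes whose 4 mean z-scores lay nearest, among 429 with at least 3 clones, were ARF4, TUBB4B and PPIA for GAPDH, at Euclidean distances of 0.13, 0.16 and 0.16 over the 4 arrays. For TPI1 they were JUNB, COPE and SLC25A11 (0.03, 0.06 and 0.07), for PFKL ALDH3A1, PTBP1 and DLST (0.07, 0.07 and 0.12), and for CKB CLK3, GYS1 and CASP6 (0.06, 0.07 and 0.09). These distances are small beside the SD between clones of a member gene on an array, 0.65 to 1.37, so the order of nearness lies within the spread of clones. Of the genes named, GYS1 makes glycogen, the store of glucose units, DLST is a subunit of a citric acid cycle enzyme complex, and PPIA, cyclophilin A, is a common reference gene. Whether the nearest genes share a function with the members was not tested.

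The spots beside a member clone were read as well, because a bright spot can spread into its neighbours on a membrane. Clone 7593, the brightest TPI1 spot, lay between a LYPLA2 clone of 1851 to 4688 over the arrays and an NR4A2 clone that read 36.1 in stimulated axons and 10 on the other 3 arrays. GAPDH clone 2635 was dim, and the RXRB clone before it read between 2368 and 3374. Bright spots also lay beside other dim clones. The CLTB clone after GAPDH clone 1562 read between 3289 and 4600. The PPP1CB clone after PFKL clone 5842 read between 1494 and 2033, and the ZFP64 clone before CKB clone 2071 between 1447 and 1802.5. An unnamed spot after TPI1 clone 2240 read 232, 167, 434 and 425 and so lay close to that clone on every array. Neighbours of the other bright clones ranged from dim to bright. The part of any neighbour in the member values was not tested.

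The enzymes of glycolysis were read from a list of 24 genes, of which the platform measured 15, and 12 with 25 clones are not members. The median z ratio of these 12 was −0.12 for stimulation in axons and −0.24 in cell bodies, and −0.18 and −0.06 between the unstimulated and the stimulated compartments, beside medians over all genes of 0.02, 0.05, −0.06 and −0.04. None of the 15 genes was counted as higher in any comparison, and over all 6284 genes the shares counted as higher were 2.86%, 1.37%, 3.34% and 2.64% in this order of comparisons, and those counted as lower 4.96%, 2.98%, 2.88% and 4.79%. GPI, which converts glucose 6-phosphate to fructose 6-phosphate, was lower after stimulation in both compartments, and lower in stimulated axons than in stimulated cell bodies, but its only clone read 1.21 and 10 in stimulated and unstimulated axons and 10 and 32.9 in stimulated and unstimulated cell bodies, and 3 of these are not above background. PGAM2, the muscle type of phosphoglycerate mutase, was lower in stimulated axons than in stimulated cell bodies, at −1.55, with readings of 164 and 519 and a single clone.

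ALDOA, the aldolase that cleaves fructose 1,6-bisphosphate, went the other way with 6 clones, at 0.85 ± 0.23 in unstimulated and 1.002 ± 0.34 in stimulated axons against cell bodies (SD between clones, n = 6) and at 0.33 ± 0.31 after stimulation in axons. In cell bodies the lowest values after GPI were ALDOC at −1.37 and GAPDH at −1.09, and the highest were PFKL at 0.28 and PFKM at 0.27. PFKM and PFKP, the muscle and platelet types of phosphofructokinase, stood at 0.30 and −0.48 after stimulation in axons beside PFKL at 0.55. The other enzymes with 4 clones each, ENO1 and PKM, were at 0.09 and −0.31 in axons.

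**Figure D4:**
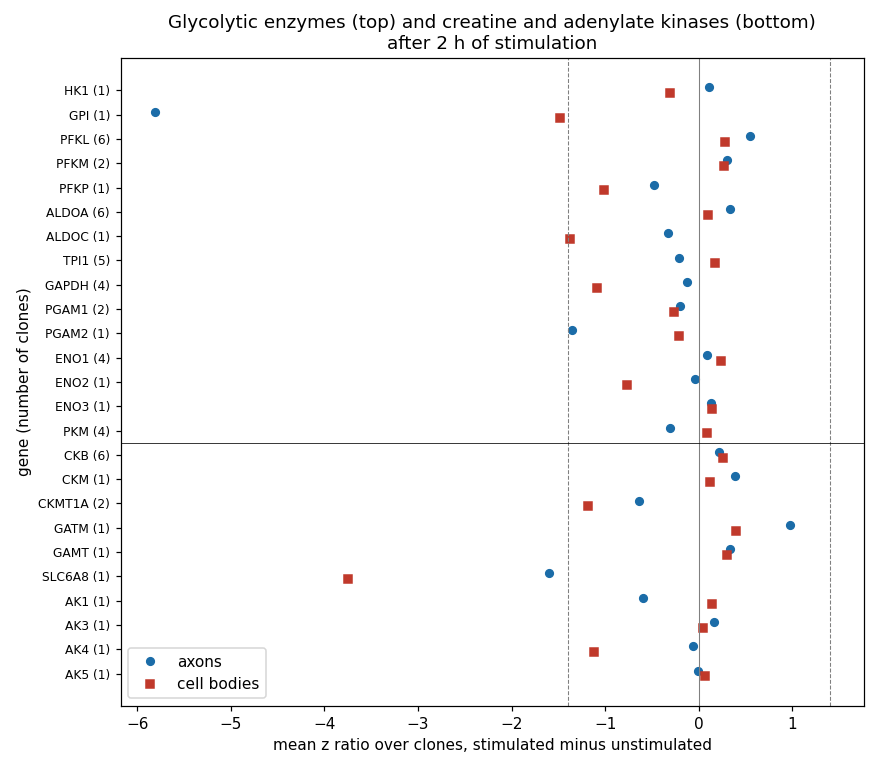
Mean z ratio over the clones of each measured glycolytic enzyme (top, 15 genes) and each creatine or adenylate kinase gene (bottom, 10 genes) for stimulated against unstimulated axons (circles) and cell bodies (squares), with the number of clones in parentheses and dashed lines at 1.4 in each direction. GPI and SLC6A8 are the genes beyond the lower line, each with 1 clone that fell to or below the background limit on an array.

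Among creatine and adenylate kinases and creatine transport, 10 of 14 genes were measured. The creatine transporter SLC6A8 was the 1 gene past the threshold, at −1.60 (axons) and −3.74 (cell bodies) after stimulation, but its single clone was under the background limit on both stimulated arrays. CKM, the muscle type of creatine kinase, was at 0.39 and 0.12, and CKMT1A, a mitochondrial creatine kinase, at −0.64 and −1.18 with 2 clones. GATM, the first enzyme of creatine synthesis, had the highest value in axons at 0.97, with readings of 74.3 and 38.6.

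Of 17 genes of pyruvate and lactate metabolism, 7 were measured and 6 of them were above 0 after stimulation in axons. MPC1, a subunit of the mitochondrial pyruvate carrier, was highest at 1.36, with readings of 127 and 56.9. PDHA1, a subunit of pyruvate dehydrogenase, was lower in axons than in cell bodies both without stimulation, at −1.58, and with it, at −1.82, and its clone read 355 and 300.2 in stimulated and unstimulated axons and 1614 and 1410 in stimulated and unstimulated cell bodies.

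Of 20 genes of glucose uptake and of branches of glycolysis, 8 were measured, mostly of the pentose phosphate pathway, and all 8 were above 0 after stimulation in axons, where 51.6% of all genes were. RPIA, ribose-5-phosphate isomerase, was the 1 past the threshold at 2.46, from an unstimulated reading of 14.0 under the background limit to 52.8, and it was also higher in stimulated axons than in stimulated cell bodies, at 1.93, where the cell body reading of 10 is not above background. The other 7 lay between 0.12 and 0.64. In cell bodies 5 of the 8 were above 0. TKT, transketolase, was lower in unstimulated axons than in unstimulated cell bodies, at −1.92, with readings of 27.5 and 141 from a single clone. The axon reading was just over its limit of 21.9, and in stimulated axons the clone, at 39.3, was not above background.

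GAPDH was also set beside other genes used as references, of which 10 of 16 were measured, GAPDH included. In unstimulated axons against cell bodies PPIA, with 5 clones, had a mean of −1.14 ± 0.12, beside −1.01 ± 0.18 for GAPDH. ACTB with 7 clones was at 0.18 ± 0.69, TUBB with 6 clones at −0.16 ± 0.49 and RPL13A with 3 clones at 0.94 ± 0.07. Of the 10 references 7 were below 0 there, among them HPRT1 at −0.77 and YWHAZ at −0.56 with 1 clone each, where 54.1% of all genes were below 0. The means of ACTB and TUBB stayed between −0.16 and 0.30 in all 4 comparisons, each within the spread of its clones. The SD between clones was 0.54 to 0.69 for ACTB and 0.29 to 0.54 for TUBB. In stimulated axons 1 clone of each was not above background, and 1 ACTB clone was not in unstimulated axons. YWHAZ and TFRC, with 1 clone each, were lower in stimulated than in unstimulated axons, at −2.22 and −1.92.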

How the data were processed

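The members and the gene lists were chosen with earlier results of these data known. The authors extracted total RNA of each compartment, amplified and radiolabelled it, hybridized it to nylon membranes of cDNA clones, read these with a phosphor imager, and deposited the raw intensity of 9600 spots on 4 arrays, not normalized between arrays. No source used here says how background was treated. The methods and the sample records differ in the amount of RNA and in how samples were pooled, and the records are followed. The authors deposited the values in 2 tables, and all 38400 values compared were identical.

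Genes come from the platform's annotation. The log10 intensities of each array were turned into z-scores using all of its spots. The z ratio is their difference between a pair of arrays over the SD of that difference, with a threshold of 1.4 after the methods. A gene's value is the mean over its clones, which share the RNA and are no replicates, so that no p-value was computed and precision is limited by the 4 arrays. The text covers every clone of the 4 genes, the 3 nearest genes among those with at least 3 clones, and, of each pathway list and the reference list, genes past the threshold or otherwise the highest and lowest. ENO1, PKM, PFKM and PFKP, the references other than YWHAZ and TFRC, the genes given for markers, and the few spots named beside member clones, out of all those read, were named after their values were seen. Lists are described by counts and medians, with no test.

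Alternatives were a median-centred log2 ratio with a threshold of 1, a robust z-score, quantile, loess (span 0.3) and normexp (offset 50) processing, filters on spots above the array mean and above 10, the other table, thresholds of 1.3 and 2, centring by place in the 50-spot row and by row, and the median over clones. Leaving out each clone was added after seeing the data. Python 3.11.15, numpy 2.4.6, pandas 2.3.3, R 4.3.3 and limma 3.58.1 were used, and the z ratio was tested on simulated data.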

Additional observations from a re-analysis of the deposited data

How the results depend on the processing

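Of 88 counts of member clones past the threshold under an alternative, 58 stayed within 1.5 times the main count and 30 did not. The counts from the other table, which is identical, could not change. The main counts were all 0, 1 or 2, and where they were 0 a threshold of 2 could not change them either. With clones above the array mean only, 9 of 21 clones are left, and the counts were 0 higher and 0 lower for stimulation in axons, 5 higher and 0 lower in cell bodies, 1 higher and 1 lower between unstimulated compartments, and 1 higher between stimulated ones. The 5 calls in cell bodies come from dividing unchanged z-score differences by the SD over the spots kept. With normexp they were 0 higher and 1 lower in axons, 3 lower between unstimulated compartments, and 3 higher and 2 lower in cell bodies. With a robust z-score they were 2 higher and 1 lower in axons, and 2 higher and 0 lower in stimulated axons against cell bodies. With spots above 10 they were 2 lower between unstimulated compartments, and 2 higher and 2 lower in cell bodies. Centring by membrane position gave 2 higher and 1 lower in axons and 1 lower between unstimulated compartments, and loess gave 2 lower in the latter. The log2 ratio gave 0 lower in axons and 1 higher in stimulated axons against cell bodies, and quantile normalization gave 1 lower in each of these comparisons. A threshold of 2 left 0 in either direction in axons and 0 lower between stimulated compartments. The main count of 2 lower between stimulated compartments stayed at 2 with clones above the array mean, normexp, the log2 ratio and centring by membrane position. It was 3 with loess and with spots above 10.

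Of 244 gene means under an alternative, 232 moved by less than the SD between clones. Part of these were fixed in advance. Leaving out a clone or taking the median over clones cannot shift a mean by that SD, and the other table is identical. With clones above the array mean only, where GAPDH and CKB keep 1 clone each, GAPDH stood at 2.02 in cell bodies, −1.73 between unstimulated and −2.24 between stimulated compartments. TPI1 stood at 1.43 and PFKL at 1.13 in cell bodies, and CKB at −0.16 in axons, −0.44 in cell bodies and 0.57 and 0.47 between unstimulated and stimulated compartments. The filters on spots keep each z-score difference and divide it by the SD over the spots kept. A clone's value thus changes by rescaling alone, as for GAPDH clone 5118 in cell bodies, from 0.58 to 2.02. GAPDH between unstimulated compartments was −0.78 with a robust z-score and −1.41 with spots above 10, and PFKL between stimulated compartments was 0.69 with a robust z-score. Means smaller than the SD between clones can change sign, as GAPDH did in the log2 ratio, at 0.05 in axons and 0.07 between stimulated compartments. Under alternatives other than the filters on spots, the cause of a shift was not tested. Signal over background limits the dim clones, since 3 of the 21 fell to the limit on an array, and 2 of the 3 calls in axons rest on such readings.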
